A study of Mus musculus with 2 samples.

Results

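The 42 genes described here encode the non-collagen extracellular matrix of the heart, the enzymes and inhibitors that process it, and 3 genes used to recognise cardiac fibroblasts or widely expressed in them. They were chosen by name, and all 42 were matched among the 43346 Ensembl genes of the deposited tables. They are grouped by role into 7 small leucine-rich proteoglycans, 3 adhesive and large matrix proteins, 10 elastic fibre and microfibril proteins, 8 matricellular proteins, 6 metalloproteinases and inhibitors, 5 genes of cross-linking, processing and calcification, and 3 others (Pdgfra, Tcf21 and Gsn).

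Poly(A) RNA was measured in the whole heart of 1 female adult C57BL/6J mouse, 10 weeks old, with no treatment or genetic change named in the labels. The 2 libraries are technical replicates 1 and 2 of 1 biological replicate, and the labels place the second in 2015, after the publication that used the first. There is no second condition, so the comparison that the design allows is between the libraries, and spreads over them are technical (n = 2). In bulk heart RNA, fewer cells of a type and less RNA per cell cannot be told apart.

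The matrix of the heart is laid down mainly by fibroblasts and holds the muscle fibres in register while passing force between them. Its fibres of collagen and elastin are organised by small proteoglycans that coat collagen fibrils and by fibrillin microfibrils that carry elastin. Matricellular proteins signal to cells without bearing load, and metalloproteinases degrade the network under the control of tissue inhibitors (TIMPs).

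The libraries differed in depth for nuclear genes and in base composition, and both differences touch every value below. Replicate 1 held 22775991 counts and replicate 2 held 19685821, of which 77.9% and 35.7% lay in mitochondrial genes and their nuclear copies. This left 5028154 and 12654724 counts for other genes, with a mean GC content of 45.0% and 50.5%. Levels are therefore given as nuclear TPM, which is transcripts per 1000000 after mitochondrial genes and copies were set aside. Each of the 7 cardiomyocyte markers reached 1 TPM in each library, and their summed nuclear TPM was 43094 and 69418. Of 15 fibroblast markers outside the members all had counts, with sums of 715 and 1059. Sums for 8 endothelial markers were 428 and 846, for 9 mural markers 1469 and 847, and for 7 macrophage markers 248 and 449. Rgs5 held most of the mural sum in replicate 1, with 1393 and 322 nuclear TPM. By the test described below, 8 of the 9 mural markers were called higher in replicate 2 and Rgs5 lower. Of all tested genes, 40.5% were called higher and 23.9% lower. Epicardial (59.4 and 72.3), Schwann cell (13.3 and 11.4), adipocyte (18.4 and 45.4), cartilage and bone (0.28 and 11.3) and lymphocyte markers (0.42 and 1.61) were low, and Sox10, Cidec, Comp, Acan, Sp7 and Cd79a were at 0 counts in replicate 1. The part of these cell types in the differences below was not tested.

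Base composition ran through the set, and the sequences below show its range. Each line is the stretch of 90 coding bases nearest the middle of the coding sequence that lies within 1 exon, with G and C in capitals, from GENCODE release M21 on mm10. The stretches are shown for the 2 members of lowest GC content (Aspn and Ogn), the 2 of highest (Loxl1 and Emilin1) and the 2 of highest mean level (Dcn and Gsn).
Aspn, chr13:49557370-49557459, plus strand, exon 4 of Aspn-201: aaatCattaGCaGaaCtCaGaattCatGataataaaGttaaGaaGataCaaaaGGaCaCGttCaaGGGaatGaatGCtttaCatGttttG
Ogn, chr13:49618095-49618184, plus strand, exon 5 of Ogn-201: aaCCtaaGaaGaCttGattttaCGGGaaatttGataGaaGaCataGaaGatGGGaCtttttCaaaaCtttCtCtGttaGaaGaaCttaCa
Dcn, chr10:97507705-97507794, plus strand, exon 5 of Dcn-202: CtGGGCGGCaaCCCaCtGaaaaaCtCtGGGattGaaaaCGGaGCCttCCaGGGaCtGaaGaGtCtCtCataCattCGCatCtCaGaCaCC
Gsn, chr2:35296369-35296458, plus strand, exon 9 of Gsn-201: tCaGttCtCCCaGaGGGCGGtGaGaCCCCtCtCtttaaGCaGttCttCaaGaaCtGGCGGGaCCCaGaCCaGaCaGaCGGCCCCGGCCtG
Emilin1, chr5:30917899-30917988, plus strand, exon 4 of Emilin1-201: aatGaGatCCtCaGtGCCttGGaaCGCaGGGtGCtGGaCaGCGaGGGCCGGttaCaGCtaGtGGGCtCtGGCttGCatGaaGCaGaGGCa
Loxl1, chr9:58311930-58312019, minus strand, exon 1 of Loxl1-201: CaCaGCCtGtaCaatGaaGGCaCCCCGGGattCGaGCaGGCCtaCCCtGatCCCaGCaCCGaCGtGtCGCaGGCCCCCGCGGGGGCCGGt

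G and C made up 28 of the 90 bases in Aspn, 29 in Ogn, 47 in Dcn, 53 in Emilin1, 55 in Gsn and 62 in Loxl1. Over whole transcripts, the GC content of the 42 genes ran from 34.3% in Aspn to 61.1% in Emilin1, with a median of 51.8% against 50% over all tested genes. The ends of this range lay far apart in the library comparison. Aspn and Ogn were among the members lowest in replicate 2 relative to replicate 1, and Emilin1 had no count at all in replicate 1. Loxl1 was 15.3-fold higher in replicate 2 on the scale described below, less than Gsn at 30.5-fold.

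Together the 42 genes took 0.545% of nuclear TPM in replicate 1 and 0.508% in replicate 2, or 5454 and 5076 nuclear TPM. The sum was thus nearly equal, while its composition was not. Decorin (Dcn) made up 36.3% of it in replicate 1 and 15.2% in replicate 2, and gelsolin (Gsn) made up 1.01% and 25.5%. The 5 highest members held 69.9% and 68.3% of the sum. Of the 10 highest members, 8 were shared by the libraries. Ranked over the 42 genes, the libraries' nuclear TPM had a Spearman rho of 0.64, beside 0.61 over all tested nuclear genes, as a description across genes.

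The highest mean nuclear TPM were those of Dcn, with 1376 ± 853 (SD, n = 2 libraries), Gsn with 675 ± 877, Mgp with 560 ± 489 and Ogn with 473 ± 501. Within each library, Dcn lay above Ogn (1979 against 827 in replicate 1, 773 against 119 in replicate 2). The order of every other pair among these 4 changed between the libraries. Lum followed with 263 ± 209 and Timp3 with 244 ± 168. Sparc, Sparcl1 and Bgn came next at 218 ± 65.0, 216 ± 25.2 and 202 ± 36.7, with smaller SDs and an order that likewise changed between the libraries. At the other end, tenascin C (Tnc) was the lowest member in replicate 2, with 0.55 and 0.59 nuclear TPM from 8 and 31 counts. At a limit of 1 TPM as deposited, 21 members were reached in replicate 1 and 41 in replicate 2, with Tnc below it, and 21 in both. At 1 nuclear TPM, 36 were reached in both.

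**Figure D1:**
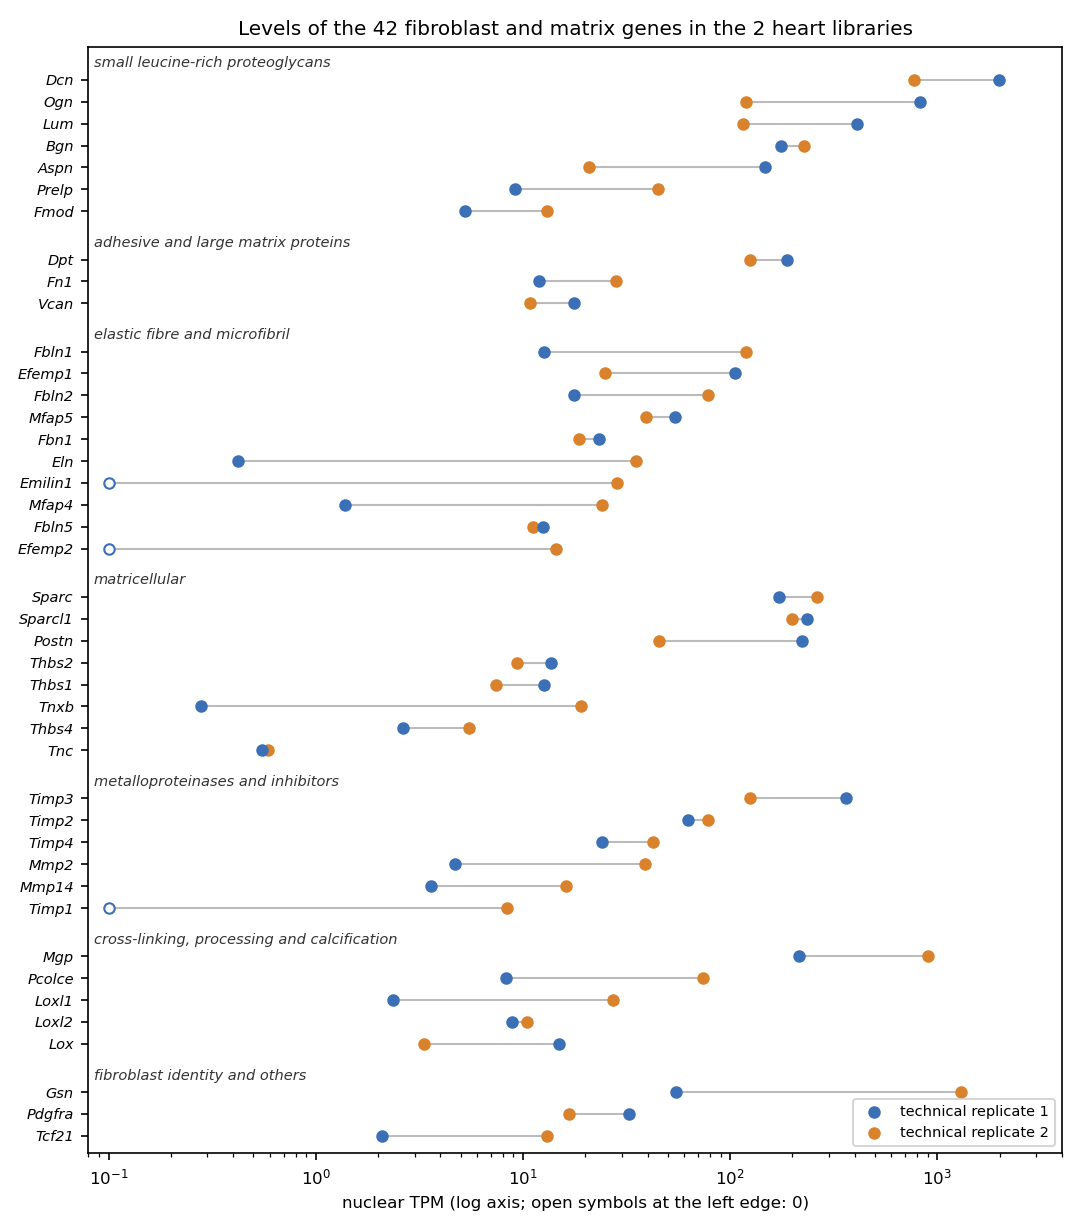
Nuclear TPM of each of the 42 genes in technical replicate 1 (blue) and 2 (orange) on a log axis, grouped by role and ordered by the mean within a role; open symbols at the left edge are levels of 0. Dcn and Gsn reach 1979 and 1295 in one library each, Sparcl1 and Sparc lie close together in both, and Emilin1, Efemp2 and Timp1 are at 0 in replicate 1.

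The libraries were compared gene by gene with an exact binomial test in edgeR on TMM-scaled counts, with Benjamini-Hochberg adjustment over 13182 genes. A gene was called at an adjusted p under 0.05 and at least a 2-fold ratio. Such a test compares these libraries and not conditions, and it covers counting error only. By this rule 21 of the 42 genes (50%) were called higher in replicate 2, where 40.5% of all tested genes were, and 7 (16.7%) were called lower, where 23.9% of all tested genes were. The other 14 were not called, 9 of them with an adjusted p under 0.05 but a ratio below 2-fold. The median log2 ratio of replicate 2 over replicate 1 was 0.96 over the 42 genes and 0.37 over all tested genes. With unscaled library totals, 32 genes were called higher, against 65.8% of all tested genes, and none lower, against 1.05%.

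The ratio followed GC content among these genes as it did among all genes. Pearson's r between GC content and log2 ratio was 0.87 over the 42 genes (Spearman 0.92) and 0.85 over 13155 tested genes (Spearman 0.90). Genes are not independent replicates, and these values are descriptions. Below the lower tertile of all tested genes (46.9% GC) lay 9 members, of which 7 were called lower and none higher. Above the upper tertile (53.2% GC) lay 16, of which 15 were called higher and none lower, and the exception was Timp2. The shares of all tested genes were 65.6% lower in the low tertile and 89.6% higher in the high one. The median log2 ratios of members in the low, middle and high tertile, -1.16, 0.57 and 3.29, were close to those of all tested genes there, -1.28, 0.43 and 3.34.

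**Figure D2:**
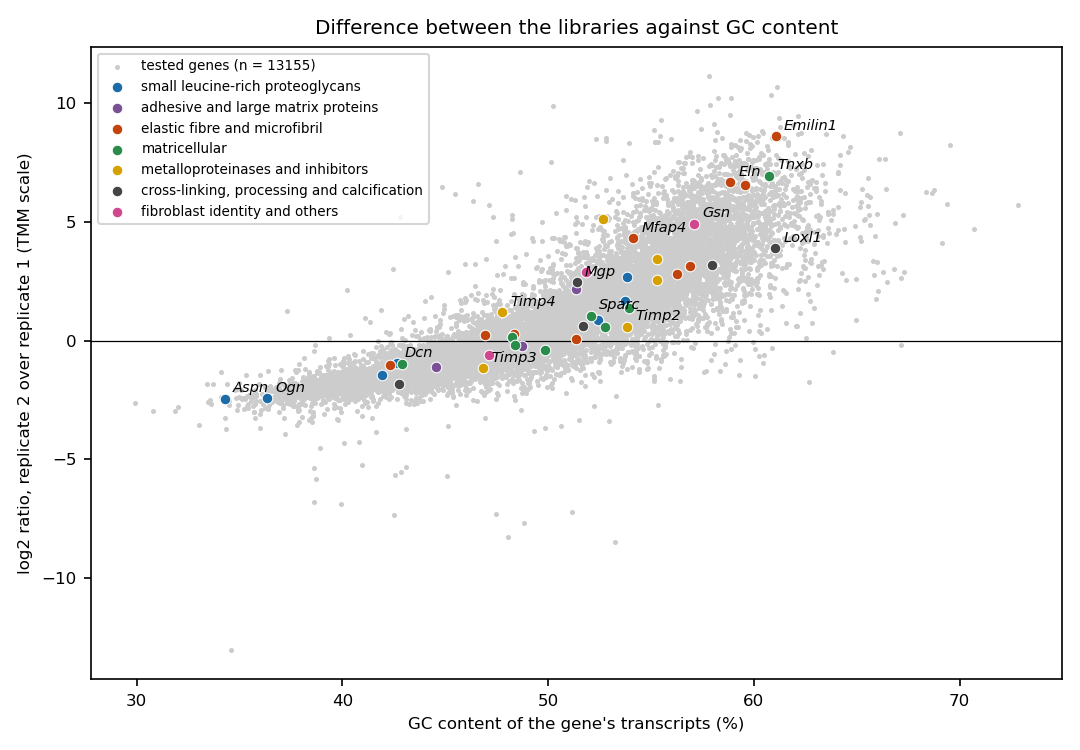
Log2 ratio of replicate 2 over replicate 1 (TMM scale) against the GC content of each gene's transcripts in percent, for 13155 tested genes (grey) and the 42 members (coloured by role). Members run along the same rising band as other genes, from Aspn and Ogn at the lower left to Emilin1 and Tnxb at the upper right.

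When the median ratio at each gene's GC content was subtracted, 10 members were called higher (23.8%, against 10.2% of all tested genes) and 3 lower (7.14%, against 10.8%). The 10 were Fn1, Eln, Mfap4, Emilin1, Tnxb, Timp1, Timp4, Mgp, Tcf21 and Gsn, and the 3 were Timp2, Loxl1 and Pcolce. Of the 10, Emilin1 and Timp1 had 0 counts in replicate 1, Eln had 2, and Mfap4, Tnxb and Tcf21 had 5 each. With the 0 set to 3 counts, Emilin1 and Timp1 were at 1.92-fold and 1.90-fold, under the limit for a call. The share of 23.8% thus rests in part on few or no reads. The log2 ratio of 17 members changed sign, and 10 members were called in the same direction by both fits. The median log2 ratio became -0.08, beside 0.00 for all tested genes. Whether GC content itself, or another property of the libraries that moves with it, set these ratios was not tested.

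**Figure D3:**
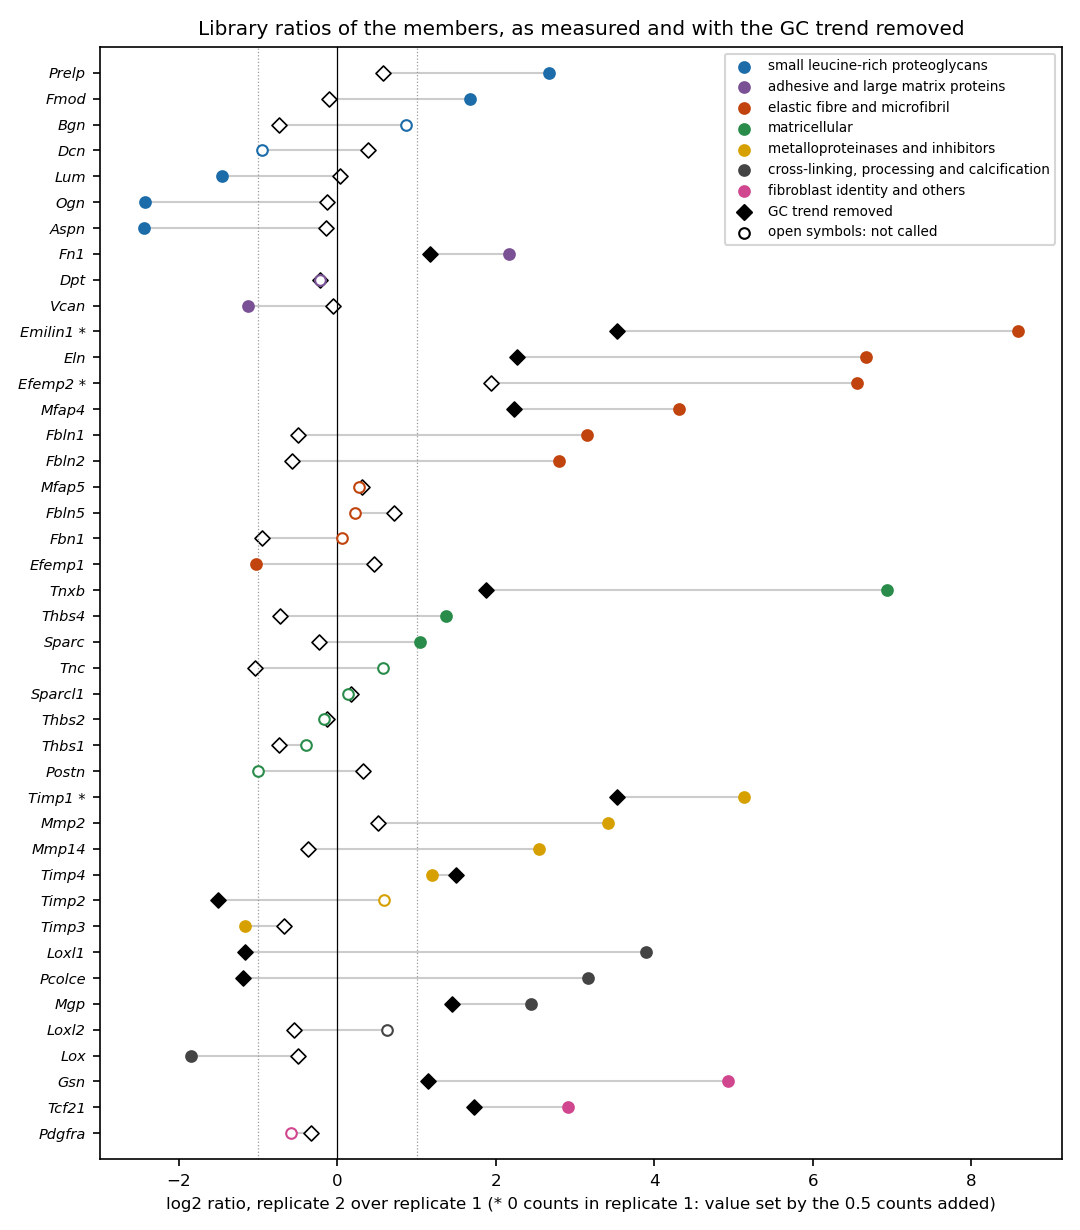
Log2 ratio of replicate 2 over replicate 1 for each member as measured (circles, coloured by role) and with the GC trend removed (diamonds); filled symbols passed the test and the 2-fold limit, dotted lines mark 2-fold. The diamond lies nearer to 0 than the circle for 33 members, while those of Fn1, Mfap4, Timp4, Mgp, Tcf21 and Gsn, among others, lie beyond 2-fold.

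The small leucine-rich proteoglycans, which bind collagen fibrils and set their spacing and diameter, were the most abundant role in replicate 1. Their summed nuclear TPM was 3554 in replicate 1 and 1314 in replicate 2, a 2.70-fold difference. Of the 7, 3 were called lower in replicate 2, 2 higher and 2 neither, and none was called once the GC trend was removed. Over all tested genes, 23.9% were called lower and 40.5% higher, and with the trend removed 10.8% and 10.2%. Dcn, decorin, the fibril-coating proteoglycan that also binds TGF-beta, had 7570 and 9711 counts (143 and 302 TPM, 1979 and 773 nuclear TPM). It ranked 56th and 206th among nuclear genes, and its ratio, 1.94-fold lower in replicate 2, just missed the 2-fold limit. Biglycan (Bgn), its close relative, had 831 and 3771 counts and 176 and 228 nuclear TPM, and was not called at 1.82-fold higher. Both are therefore abundant in either library, with decorin ahead of biglycan in each.

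Lumican (Lum), a keratan sulfate proteoglycan of collagen fibrils, had 1816 and 1651 counts, or 411 and 116 nuclear TPM. It was called lower in replicate 2 (2.74-fold, exact interval 2.56 to 2.93, adjusted p = 5.8e-187 by edgeR). Osteoglycin (Ogn) had 4555 and 2107 counts, or 827 and 119 nuclear TPM, and was 5.38-fold lower in replicate 2 (interval 5.11 to 5.67). Asporin (Aspn), which carries a run of aspartate residues, had 743 and 341 counts, or 147 and 20.9 nuclear TPM, and was 5.43-fold lower (4.77 to 6.19). With the GC trend removed, the log2 ratios of Lum, Ogn and Aspn were 0.03, -0.13 and -0.14, so that nearly the whole difference had the size found in other genes of their GC content. Fibromodulin (Fmod), with 36 and 290 counts, and prolargin (Prelp), with 73 and 1164, were the lowest of the role in replicate 1, with 5.26 and 9.14 nuclear TPM. Both were called higher in replicate 2, at 3.24-fold and 6.40-fold.

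Among adhesive and large matrix proteins, fibronectin (Fn1), the fibril that links cells to collagen through integrins, had 103 and 1154 counts, or 11.9 and 28.1 nuclear TPM. It was called higher in replicate 2 at 4.50-fold (3.68 to 5.56, adjusted p = 2.3e-71 by edgeR) and at 2.24-fold with the GC trend removed. Versican (Vcan), the large chondroitin sulfate proteoglycan, had 328 and 374 counts and was called lower at 2.18-fold, with a log2 ratio of -0.06 once the trend was removed. Dermatopontin (Dpt), a small protein that binds decorin and collagen, was the most abundant of the 3, with 188 and 125 nuclear TPM. Its counts of 677 and 1453 gave a ratio of 1.16-fold lower in replicate 2, under the limit for a call.

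Elastic fibre genes lay on both sides of the comparison. Elastin (Eln), the rubber-like core protein, had 2 counts in replicate 1 and 636 in replicate 2, or 0.42 and 35.1 nuclear TPM. The ratio was 128-fold, with an interval of 35.2 to 1057 that reflects the 2 counts. Fibrillin 1 (Fbn1), the main microfibril protein, had 525 and 1358 counts and 23.3 and 18.7 nuclear TPM, a ratio of 1.04-fold (adjusted p = 0.50 by edgeR). Fibrillin was thus read at similar levels in both libraries while elastin was nearly missed in one. With the GC trend removed, Fbn1 was 1.93-fold lower in replicate 2, under the limit for a call. Eln was then 4.80-fold higher, a value that also rests on the 2 counts and includes the 0.5 counts added. Emilin1, which sits between elastin and microfibrils, had 0 and 480 counts. With the 0 set to a floor of 3 counts, it was 64.3-fold higher in replicate 2 (exact lower limit 52.1). With the GC trend removed this floor ratio was 1.92-fold, so its call in that fit rests on the 0.5 counts added to the 0.

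Of the fibulins, which bridge elastin and microfibrils, Fbln1 and Fbln2 were called higher in replicate 2. Fbln1 had 103 and 2280 counts (12.7 and 120.0 nuclear TPM, 8.89-fold) and Fbln2 had 88 and 1526 (17.6 and 78.2 nuclear TPM, 6.96-fold). Fbln5, required for elastic fibre assembly, had 164 and 477 counts (12.5 and 11.2 nuclear TPM) and was not called. Efemp1 (fibulin 3) had 254 and 311 counts, or 106 and 24.8 nuclear TPM, and was called lower at 2.03-fold. Efemp2 (fibulin 4), which recruits lysyl oxidase to elastin, had 0 and 117 counts. At the floor of 3 counts it was 15.7-fold higher (exact lower limit 12.5). With the trend removed the floor ratio was 0.638-fold and Efemp2 was not called. The 5 fibulins thus lay on both sides. None was called with the trend removed, where 10.2% of all tested genes were called higher and 10.8% lower.

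Mfap4 and Mfap5 encode glycoproteins bound to microfibrils. Mfap4 had 5 and 272 counts, or 1.39 and 24.0 nuclear TPM, and was 21.8-fold higher in replicate 2 (9.25 to 67.8) and 4.67-fold with the trend removed. Mfap5 had 102 and 308 counts, or 54.2 and 39.4 nuclear TPM, at 1.21-fold (adjusted p = 0.12 by edgeR). Over the 10 genes of the role, 6 were called higher, 1 lower and 3 neither, and with the trend removed 3 higher and 7 neither. The shares of all tested genes were 40.5% higher and 23.9% lower, and with the trend removed 10.2% and 10.8%.

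Matricellular genes held 658 and 550 nuclear TPM, mostly in Sparc, Sparcl1 and Postn. Sparc (osteonectin), which binds collagen during its assembly, had 776 and 3998 counts, or 172 and 264 nuclear TPM, and was called higher at 2.07-fold. Its relative Sparcl1 had 1603 and 4388 counts, or 234 and 198 nuclear TPM, a ratio of 1.10-fold. Periostin (Postn), a product of activated fibroblasts and valve cells, had 737 and 919 counts, or 222 and 45.5 nuclear TPM. Its ratio was 2.00-fold lower in replicate 2 as rounded, and just under the limit for a call. Periostin was therefore readily detected in this heart, while tenascin C, also linked to injury, had 8 and 31 counts and was not called.

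Tenascin X (Tnxb), a matrix protein of connective tissue sheaths, had 5 and 1680 counts, or 0.28 and 19.0 nuclear TPM. It was 135-fold higher in replicate 2 (57.7 to 416) and 3.67-fold with the trend removed. The thrombospondins were low in both libraries. Thbs1, an activator of latent TGF-beta, had 168 and 319 counts (12.7 and 7.44 nuclear TPM), and Thbs2 had 183 and 406 (13.6 and 9.36). Neither was called. Thbs4, with 19 and 125 counts (2.63 and 5.50 nuclear TPM), was called higher at 2.64-fold, but not with the trend removed.

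Among metalloproteinases, the gelatinase Mmp2 and its membrane-bound activator Mmp14 kept the same order in both libraries. Mmp2 had 31 and 837 counts (4.71 and 38.9 nuclear TPM) and Mmp14 had 20 and 296 (3.60 and 16.2). Both were called higher in replicate 2, at 10.8-fold and 5.94-fold, and neither with the trend removed, where the log2 ratios were 0.51 and -0.37. Their GC contents were both 55.3%.

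Timp3 and Timp2 exceeded both proteases in each library, and Timp3 was the highest of the 4 TIMPs. Timp3, the inhibitor held in the matrix, had 3850 and 4276 counts, or 363 and 125 nuclear TPM, and was called lower at 2.24-fold (2.15 to 2.34). Timp2, which takes part in the activation of Mmp2, had 517 and 1936 counts, or 62.8 and 77.9 nuclear TPM, and was not called at 1.5-fold higher. It is the clearest departure from the GC trend on the low side: genes of its GC content had a median log2 ratio of 2.09, and with the trend removed it was 2.83-fold lower in replicate 2 (adjusted p = 3.3e-78 by edgeR).

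Timp4, the inhibitor most typical of heart among the 4, had 69 and 394 counts, or 24.0 and 42.5 nuclear TPM. It was called higher at 2.29-fold (1.77 to 3.01), and at 2.82-fold with the trend removed, on the high side of genes like it in GC content. Timp1, which is induced by inflammation and injury, had 0 and 43 counts. At the floor of 3 counts it was 5.76-fold higher in replicate 2 (exact lower limit 4.48). With the trend removed the floor ratio was 1.90-fold, and the call of Timp1 there likewise rests on the counts added. The order Timp3, Timp2, Timp4, Timp1 was the same in both libraries as measured. With replicate 1 shifted by the GC trend, Timp3 and Timp2 were nearly equal there (log2 of the TPM ratio -0.05).

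Lysyl oxidases cross-link collagen and elastin, and the 3 measured here went in different directions before the GC trend was removed. Lox had 150 and 104 counts, or 15.0 and 3.35 nuclear TPM, and was called lower at 3.59-fold (2.78 to 4.66). Loxl1, the form needed for elastin renewal, had 17 and 647 counts, or 2.36 and 27.2 nuclear TPM, and was called higher at 15.3-fold. With the trend removed it was 2.25-fold lower. Loxl2 had 106 and 409 counts, or 8.87 and 10.5 nuclear TPM, and was not called. With the trend removed, the log2 ratios were all negative, at -0.50 for Lox, -1.17 for Loxl1 and -0.55 for Loxl2. Of these, only Loxl1 was called. The highest of the 3 was Lox in replicate 1 and Loxl1 in replicate 2, so their order cannot be given for this heart.

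Pcolce, which enhances the removal of the procollagen C-propeptide, had 33 and 749 counts, or 8.31 and 73.9 nuclear TPM, and was called higher at 9.12-fold. With the trend removed it was called lower at 2.28-fold. Matrix Gla protein (Mgp), the inhibitor of vascular calcification, had 206 and 2806 counts, or 214 and 906 nuclear TPM, and was the second highest member in replicate 2. It was called higher at 5.47-fold (4.75 to 6.33) and at 2.73-fold with the trend removed (adjusted p = 4.3e-57 by edgeR). Mgp was among the highest 10 members in either library.

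The 3 remaining genes mark or label the fibroblast in different ways. Pdgfra, the receptor for platelet-derived growth factor and the usual surface marker of cardiac fibroblasts, had 483 and 801 counts, or 32.4 and 16.7 nuclear TPM, and was not called at 1.5-fold lower. Tcf21, the transcription factor of fibroblast precursors in the epicardium, had 5 and 102 counts, or 2.08 and 13.0 nuclear TPM. It was called higher at 8.19-fold (3.40 to 25.8) and at 3.31-fold with the trend removed. Gelsolin (Gsn), which severs actin filaments and is also secreted to plasma, had 318 and 24134 counts, or 55.1 and 1295 nuclear TPM. Gsn ranked first among the members in replicate 2 and 14th in replicate 1. It was called higher at 30.5-fold (27.3 to 34.2) and at 2.21-fold with the trend removed. Its expression is not restricted to fibroblasts.

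Related members were also compared within each library, where the total depth cancels, in 15 pairs as log2 of the TPM ratio with 0.1 TPM added. The sign was the same in both libraries for 11 pairs, the first gene being higher in 8 and the second in 3. Dcn exceeded Lum by 2.26 and 2.74 (mean 2.5 ± 0.33, SD, n = 2 libraries), the most even of the pairs with a large ratio, and the 2 genes differ by only 0.72 points in GC content. Dcn exceeded Bgn by 3.48 and 1.76, Timp3 exceeded Timp2 by 2.51 and 0.68, and Mmp2 exceeded Mmp14 by 0.29 and 1.25. Fbln2 exceeded Fbln5 and Thbs2 exceeded Thbs1 in both, the log2 ratios of the reverse pairs being -0.45 and -2.78 for the fibulins and -0.08 and -0.32 for the thrombospondins. The ratios over Timp1 and Efemp2 in replicate 1 rest on 0 counts and on the 0.1 TPM added.

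The order changed between libraries in 4 pairs. Sparcl1 over Sparc was 0.44 in replicate 1 and -0.41 in replicate 2, and Loxl1 over Loxl2 was -1.45 and 1.34. Fbn1 over Eln was 3.78 and -0.90, and Tnxb over Tnc was -0.22 and 4.51. In each of these 4 pairs, the gene of higher GC content was the higher one in replicate 2. Shifted by the GC trend, replicate 1 had the same sign as replicate 2 in 12 of the 15 pairs. The signs then differed in Timp3 over Timp2 (-0.05 and 0.68), Thbs1 over Thbs2 (0.26 and -0.32) and Fbn1 over Eln (2.23 and -0.90). Timp3 over Timp2 and Thbs1 over Thbs2 had the same sign in both libraries before the shift.

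**Figure D4:**
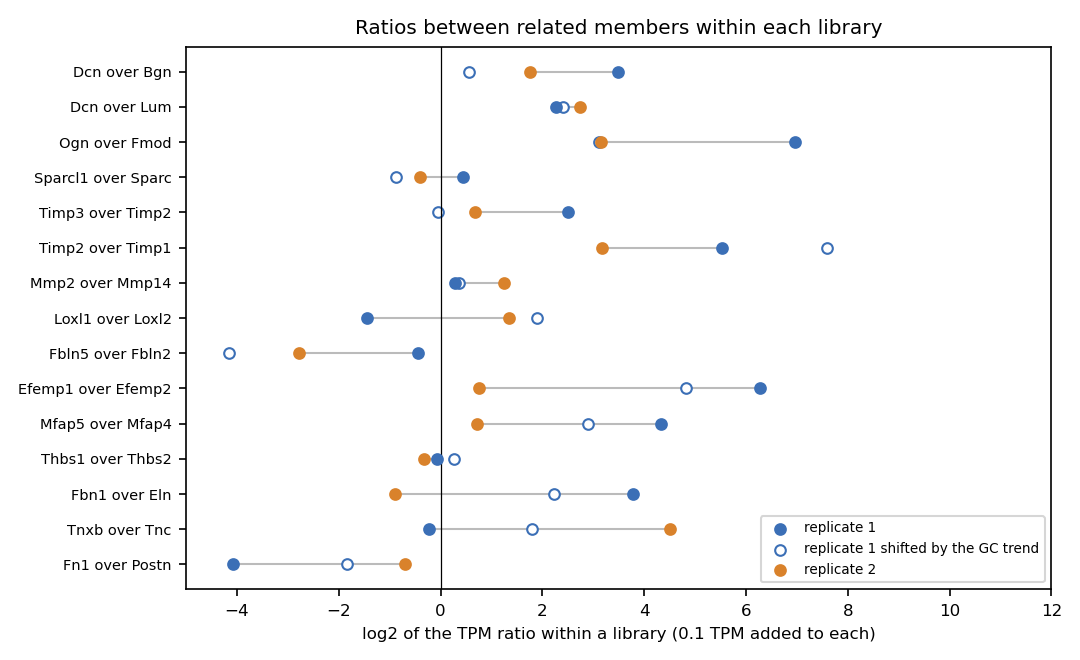
Log2 of the TPM ratio (0.1 TPM added) for 15 pairs of related members within replicate 1 (filled blue), replicate 2 (orange) and replicate 1 shifted by the GC trend (open blue). Both libraries lie on the same side of 0 in 11 pairs, and the 4 pairs that cross it are Sparcl1 over Sparc, Loxl1 over Loxl2, Fbn1 over Eln and Tnxb over Tnc.

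The deposited transcript tables list 155 transcripts of the 42 genes, with 1 transcript for 13 genes and several for 29. Of 22 genes with several transcripts and at least 20 counts in each library, 15 had the same leading transcript in both and 7 did not: Dcn, Vcan, Fbln1, Efemp1, Mfap5, Postn and Pcolce. Among the 15, Fmod, Prelp, Thbs1, Loxl2, Pdgfra and Gsn had 100% of their TPM in 1 transcript in both libraries, so no other transcript could lead. Transcripts of a type other than protein coding held 2.28% and 1.81% of the members' TPM. The shares are estimates from short reads, and transcripts that differ by little sequence are told apart by few reads. Exons are those of release M21, which may differ in their ends from the release behind the tables.

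The transcripts of Dcn differ in the first exon. Dcn-202 held 70.4% of the gene's TPM in replicate 1 and 39.3% in replicate 2, and Dcn-201 held 29.6% and 60.7%. In release M21 the first exons lie at chr10:97482367-97482547 and chr10:97479609-97479789, are both 181 bases long and hold no coding sequence, so the protein is the same. Sparc-202 held 100% and 52.4%, and Sparc-201, which has 182 more non-coding bases and 3 more coding bases, held 0% and 46.9%. Fbln1-201 and Fbln1-202 end in different exons and so encode different C-terminal ends of fibulin 1, and their shares were 97.5% and 30.9% for the former and 2.52% and 69.1% for the latter. In Vcan, Vcan-203 led in replicate 1 with 61.1% and held 20.6% in replicate 2, where Vcan-208, of 861 nt, led with 32.2% after 35.0% in replicate 1. Vcan-204, of 294 nt, held 0% and 24.9%. Vcan-206, which lacks an exon of 2880 coding bases for attachment of chondroitin sulfate, held 2.76% and 22.3%. The forms of decorin, fibulin 1 and versican therefore cannot be ranked from these libraries.

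Alternative exons within the coding sequence are shown for periostin and fibronectin, since they tell the transcripts apart. The letters are from the same source, with G and C in capitals. The first 2 lie in the part of periostin that is spliced in alternative forms near the C-terminus, and the third lies in the variable segment of fibronectin.
Postn, chr3:54385671-54385754, plus strand, in Postn-201 and absent from Postn-204: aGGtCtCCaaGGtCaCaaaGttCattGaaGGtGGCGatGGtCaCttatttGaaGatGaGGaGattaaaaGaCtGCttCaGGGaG
Postn, chr3:54380412-54380492, plus strand, in Postn-203 and absent from Postn-204: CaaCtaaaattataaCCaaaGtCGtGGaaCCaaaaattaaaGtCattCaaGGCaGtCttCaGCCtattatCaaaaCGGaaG
Fn1, chr1:71597673-71597747, minus strand, in Fn1-203 and absent from Fn1-217: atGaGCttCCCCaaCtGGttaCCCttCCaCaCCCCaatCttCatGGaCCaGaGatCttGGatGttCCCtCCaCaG

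The periostin exons are 84 and 81 bases long, with 44.0% and 34.6% GC. The first is carried by 2 and the second by 3 of the 8 transcripts with reads. Postn-204, which lacks both, held 13.2% of the gene's TPM in replicate 1 and 42.8% in replicate 2, Postn-201 held 10.2% and 23.2%, and Postn-203 held 6.74% and 15.8%. Among these 3 the order was the same in both libraries, with the form lacking both exons first. In replicate 1 a transcript of 655 nt, Postn-206, took 41.9%, against 4.44% in replicate 2.

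For fibronectin, the leading entry in both libraries was Fn1-202, a transcript annotated with a retained intron, with 74.5% and 44.9%. Of the coding forms, Fn1-203 held 3.84% and 18.4% and Fn1-217, which lacks the 75 bases shown, held 3.87% and 21.2%. The 270-base extra domain A exon (chr1:71603660-71603929), known from embryonic and injured tissue, is carried by 2 listed transcripts with reads, Fn1-214 and Fn1-201, which together held 0% and 7.24%. Fn1-203 and Fn1-217, which lack that exon, each exceeded this sum in both libraries. Efemp1-203, of 1021 nt, held 77.4% in replicate 1 and 18.6% in replicate 2, and the longer Efemp1-201 held 19.1% and 81.4%. In Pcolce the coding transcript Pcolce-201 had 0 counts in replicate 1 and 76.4% of the TPM in replicate 2, while Pcolce-204, with a retained intron, held 66.1% and 4.27%.

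**Figure D5:**
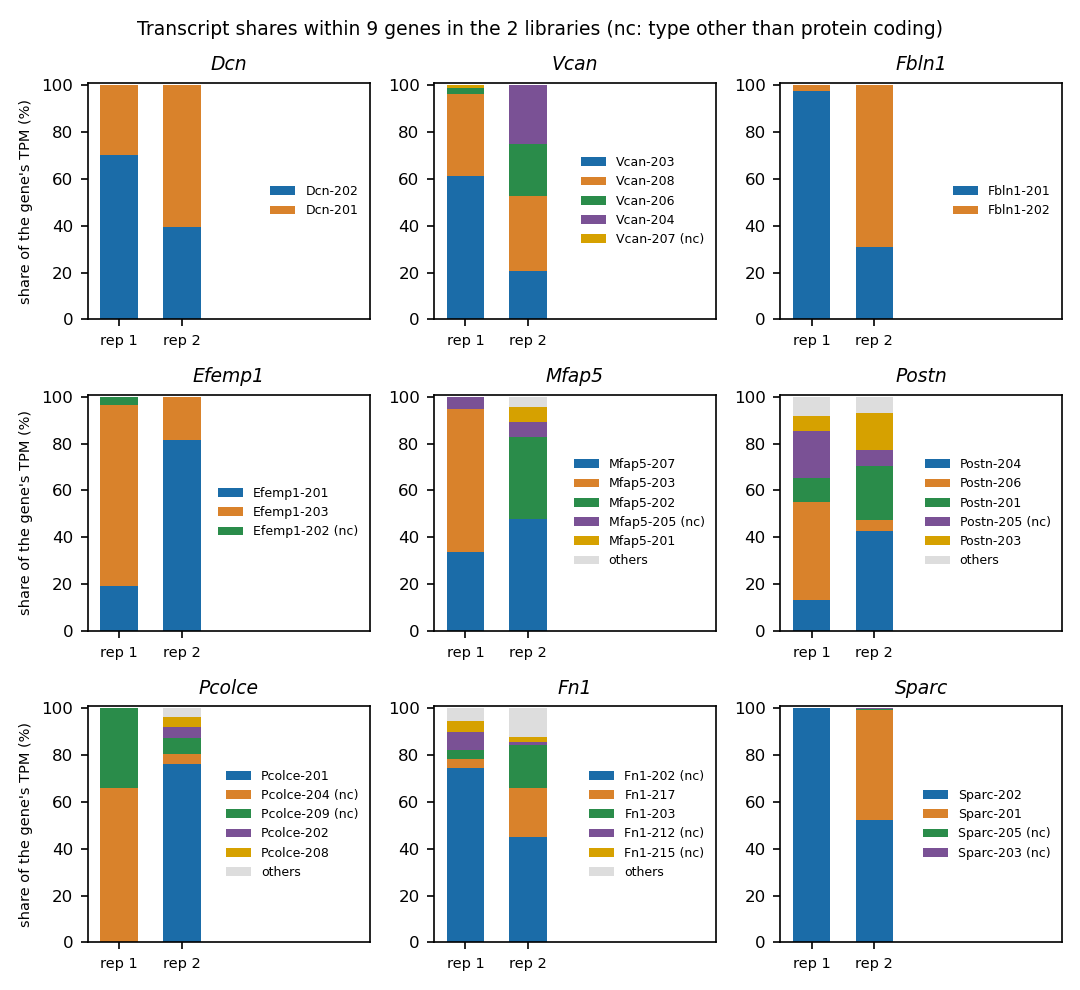
Share of a gene's TPM in percent carried by each listed transcript in replicate 1 and replicate 2, for the 7 genes whose leading transcript differed and for Fn1 and Sparc; colours mark the 5 transcripts of highest summed share, grey the rest, and nc a type other than protein coding. Dcn, Fbln1 and Efemp1 exchange their leading transcript between the libraries, while Fn1-202 and Sparc-202 lead in both.

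Of 78 further matrix genes outside the members, all were matched, 3 of them under newer symbols, and 59 were tested. Of these 59, 32 were called higher in replicate 2, 8 lower and 19 neither, beside 40.5% higher and 23.9% lower over all tested genes. With the GC trend removed, 6 were called higher and 7 lower, beside 10.2% and 10.8%. The median log2 ratio of the 59 was 1.37, beside 0.37. Perlecan (Hspg2), the heparan sulfate proteoglycan of basement membranes, had 13 and 8088 counts at 60.3% GC, and Ltbp4, which anchors latent TGF-beta to microfibrils, had 5 and 5092 at 61.4%. Both resemble Tnxb and Eln in this respect. The collagen chaperone Serpinh1 had 74.4 and 233 nuclear TPM. Ccn2, a matricellular mediator of fibrosis, had 199.6 and 149 nuclear TPM and was not called.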

How the data were processed

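The labels name 1 mouse and 2 technical libraries, which are not separate animals. Expected counts per gene and per transcript, TPM, FPKM and the percent of a gene's TPM per transcript are columns of the deposited tables, for assembly mm10 and annotation M4 per the deposited descriptions. The sources used here name no aligner, quantifier or strand setting. Reads of a member and of a gene on its other strand may therefore be mixed. The posterior mean counts of the deposited tables served only as an alternative, and their SD was 0 for 40 of the 42 members, which leaves Tnxb and Loxl2 with reads shared with other genes. FPKM values of the deposited tables were not used.

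Identifiers were matched to GENCODE M21 (mm10) for symbols, coordinates, sequences and GC content, which is the mean over a gene's transcripts weighted by TPM. Nuclear copies of mitochondrial genes were those with at least 95% identity over 90% of their length (blastn 2.17.0). Counts were rounded and compared with the exact binomial test of edgeR 4.0.16 in R 4.3.3 (two-sided, TMM sizes, at least 20 counts over both libraries, 0.5 counts added for log2 ratios). The GC trend was the median log2 ratio in 50 bins. Folds with the trend removed include the 0.5 counts added, except those at the floor of 3 counts, and the other folds do not. Ratio intervals are 95% exact binomial and hold for counting error alone, because reads without molecular identifiers can copy 1 molecule, and a count of 0 was set to 3 counts per library. The steps were tested on simulated data. Alternatives covered scaling (library totals, DESeq2 1.42.0 size factors, mitochondrial genes removed), the filters, posterior means, the pseudocount, the TPM limit, the GC trend and leaving out a library or Dcn. All 42 members are named, with the 2 leading transcripts of those described and the highest genes of other lists. Members, lists and tests were chosen with earlier results of these data known. Python 3.11.15, pandas 2.3.3, scipy 1.17.1 and matplotlib 3.10.9 were used.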

Additional observations from a re-analysis of the deposited data

How the results depend on the processing

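The counts of called members and their median moved most with scaling and GC content. With library totals, 32 members were called higher and 0 lower, with a median log2 ratio of 2.48. With the GC trend removed, 10 were called higher and 3 lower, with a median of -0.08. Without the 2-fold limit, 12 were called lower. DESeq2 size factors gave 20 and 9, removal of mitochondrial genes before scaling 21 and 8, and posterior mean counts 21 and 7. Members at 1 TPM in both libraries were 36 by nuclear TPM, and 21 to 41 with 1 library left out. The summed nuclear TPM ratio, 0.931, was 5.04 by deposited TPM, 1.15 by posterior means and 1.24 without Dcn, so its direction is not settled. Sparcl1 over Sparc had a mean log2 ratio of 0.02, 0.00 by posterior means, -0.64 with replicate 1 shifted by the GC trend and -0.41 to 0.44 in single libraries. Loxl1 over Loxl2 (-0.05) was 0.35 with 1 TPM added, 1.62 with the shift and -1.45 to 1.34 in single libraries. Single libraries ranged from -0.90 to 3.78 for Fbn1 over Eln and from -0.22 to 4.51 for Tnxb over Tnc. Log2 ratios that changed sign with library totals were Lum 0.07, Vcan 0.40, Dpt 1.31, Efemp1 0.50, Thbs1 1.13, Thbs2 1.36, Timp3 0.36, Dcn 0.57, Postn 0.53 and Pdgfra 0.94. Those that changed sign with the GC trend removed were Lum 0.03, Fmod -0.11, Fbln1 -0.49, Fbln2 -0.57, Efemp1 0.46, Sparc -0.23, Thbs4 -0.72, Mmp14 -0.37, Timp2 -1.50, Loxl1 -1.17, Pcolce -1.19, Dcn 0.38, Bgn -0.73, Fbn1 -0.95, Postn 0.32, Tnc -1.05 and Loxl2 -0.55. With DESeq2 size factors Fbn1 was at -0.02. The cause was not tested. The 10 members with under 20 counts in replicate 1 have the least precise ratios. No paired analysis was possible because the 2 libraries form a single group.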

Other observations

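The genes of small leucine-rich proteoglycans lie in clusters, and neighbouring members had similar GC content and ratios in the same direction. The sizes of the ratios were close for Aspn and Ogn, while the exact intervals of the other neighbours did not overlap. Dcn and Lum lie 47 kb apart on chromosome 10 with no coding gene between them, at 42.6% and 41.9% GC and log2 ratios of -0.96 and -1.45. Beyond them on the same chromosome, keratocan (Kera) had 2 and 1 counts and epiphycan (Epyc) 33 and 23. Aspn and Ogn lie 40 kb apart on chromosome 13 with osteomodulin (Omd) between them, at 34.3%, 36.3% and 34.9% GC. Their log2 ratios were -2.44 and -2.43, and that of Omd, with 55 and 18 counts, was -2.90. Ecm2, which lies beside Aspn and was chosen after its values were seen, had 732 and 613 counts, 91.7 and 23.8 nuclear TPM and a log2 ratio of -1.57. Fmod and Prelp lie 116 kb apart on chromosome 1, at 53.7% and 53.8% GC, with log2 ratios of 1.68 and 2.67. The 3 clusters thus fell on both sides of the comparison, each with its GC content.

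Timp1, Timp3 and Timp4 each lie inside a synapsin gene on the opposite strand. Syn1 around Timp1 had 4 and 3 counts, Syn3 around Timp3 had 0 and 3, and Syn2 around Timp4 had 17 and 52, against 3850 and 4276 counts for Timp3 itself. Of the 42 members, 13 are overlapped on the opposite strand by a gene with counts. In replicate 2 the highest of these were Mus81 beside Efemp2, with 2 and 340 counts, and Mapk7 beside Mfap4, with 0 and 131. How far reads of these partners enter the counts of Efemp2 and Mfap4 was not tested.

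All counts of Gsn, 318 and 24134, were assigned to Gsn-201, which encodes the secreted form, and the other 3 listed transcripts had 0. Release M21 holds a further full-length transcript, Gsn-205, with another first exon, which is not among the transcripts of the deposited tables. The share of the cytoplasmic form can therefore not be read from these values.

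With the GC trend removed, the log2 ratio was lower in longer transcripts across genes, with a Spearman rho of -0.24 over 13155 tested genes and -0.43 over the 42 members, as a description. The 11 members in the short tertile (below 1913 nt) had a median of 1.45, the 17 in the middle one -0.13 and the 14 in the long one (above 3392 nt) -0.42. Over all tested genes these medians were 0.28, -0.01 and -0.14. The short members include Timp1 and Efemp2, which had 0 counts in replicate 1 and log2 ratios of 3.53 and 1.94 here. At the floor of 3 counts their ratios with the trend removed were only 1.90-fold and 0.638-fold. The median of 1.45 in short members thus rests in part on the counts added, and the rho of -0.43 includes the same values. Among members, the ratio before removal of the trend had a Spearman rho of 0.75 with the GC content of the coding sequence, 0.71 with that of the 3' UTR (41 genes) and 0.39 with that of the last codon position, beside 0.92 for the whole transcript. The differences between these values were not tested.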
